A study of Homo sapiens with 6 samples.

Results

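Desmosomal cadherins and plaque proteins were examined as a group of 10 genes in fluvastatin-sensitive and fluvastatin-resistant cells of the MCF10A series. The cadherins were desmogleins DSG1, DSG2 and DSG3 and desmocollins DSC1, DSC2 and DSC3, and the plaque proteins were desmoplakin DSP, plakoglobin JUP and plakophilins PKP1 and PKP3. Members were chosen by gene symbol, and all 10 were found among 81496 symbols on the array, each with 1 probe set. Total RNA of MCF10.AT1, labelled as untreated and sensitive to fluvastatin, was compared with that of MCF10.AT1-R, labelled as resistant. MCF10.AT1 is a preneoplastic human breast epithelial line, given in the labels as breast cancer, that descends from MCF10A cells carrying an activated HRAS. MCF10.AT1-R is a single line selected from it in rising doses of fluvastatin, an inhibitor of HMG-CoA reductase in the mevalonate pathway, from 1 to 20 µM. Whether MCF10.AT1-R was in the drug at harvest is not given in the sources used here. Each line had 3 arrays, labelled as biological replicates. Arrays A01 to A03 hold MCF10.AT1, and arrays B02 to B04 hold MCF10.AT1-R.

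Desmosomes are spot-like junctions that tie the keratin filaments of neighbouring epithelial cells together. Desmogleins and desmocollins span the membrane and bind their counterparts on the next cell, plakoglobin and plakophilins hold their tails on the inner side, and desmoplakin connects this plaque to keratin. In stratified epithelia DSG2 and DSC2 are found broadly, DSG3 and DSC3 mainly in basal layers, and DSG1 and DSC1 mainly in upper layers. In the breast, desmosomes join luminal and myoepithelial cells.

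The values were log2 expression from Clariom D arrays. Their correlation over transcript probe sets was 0.967 to 0.977 between A01, A02, B02, B03 and B04, and 0.779 to 0.795 between A03 and these arrays. A03 was left out by the study and is given apart here, so that 2 arrays were compared with 3, and this number limits the precision of every value. The 95th percentile of the negative control probe sets, used here as background, was 2.88 to 3.14 on the 5 arrays. All 9 markers of basal breast epithelium were above it on each of these arrays. Of 7 luminal markers, 4 were above it on all 5 arrays and 2 on none. Of 8 fibroblast markers, 3 were above it on all 5 arrays and 2 on none. The letter in an array's name goes with the line. What else the letter may stand for is not given in the sources used here, so that it and the line cannot be told apart. In bulk RNA, a larger share of cells expressing a gene and more RNA of it per cell cannot be told apart.

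Of the 10 genes, 4 rose in MCF10.AT1-R at an FDR of 5%, namely DSG3, DSC2, DSP and JUP, and none fell. Among all 51457 probe sets that passed the filter, 0.758% were called higher. The filter on low and invariant probe sets kept 7 of the 10 genes, of which DSG2, DSC3 and PKP3 did not pass the test. Its SD was taken over all 5 arrays and so included the difference between the lines. The SDs within the lines of DSG2, DSG3, DSC2, DSP, JUP and PKP3 were below its limit of 0.18. These genes thus passed it only through that difference. The filter removed DSC1 for its low mean, and DSG1 and PKP1 for their low SD. These were the 3 genes below the negative-control level on all 5 arrays. The median log2 change of the 10 genes was 0.57, and included the 3 genes in the background, which were not tested. Over the 7 genes above background on all 5 arrays the median was 1.25, beside -0.016 over the 36081 symbols tested. The symbols needed only a mean above 1.88 and included some in the background, so that these medians come from unlike sets. In 8 genes every MCF10.AT1-R array was above both MCF10.AT1 arrays, an order seen in 12.9% of the probe sets tested. One of these was DSC1, which lay in the background on all 5 arrays.

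**Figure D1:**
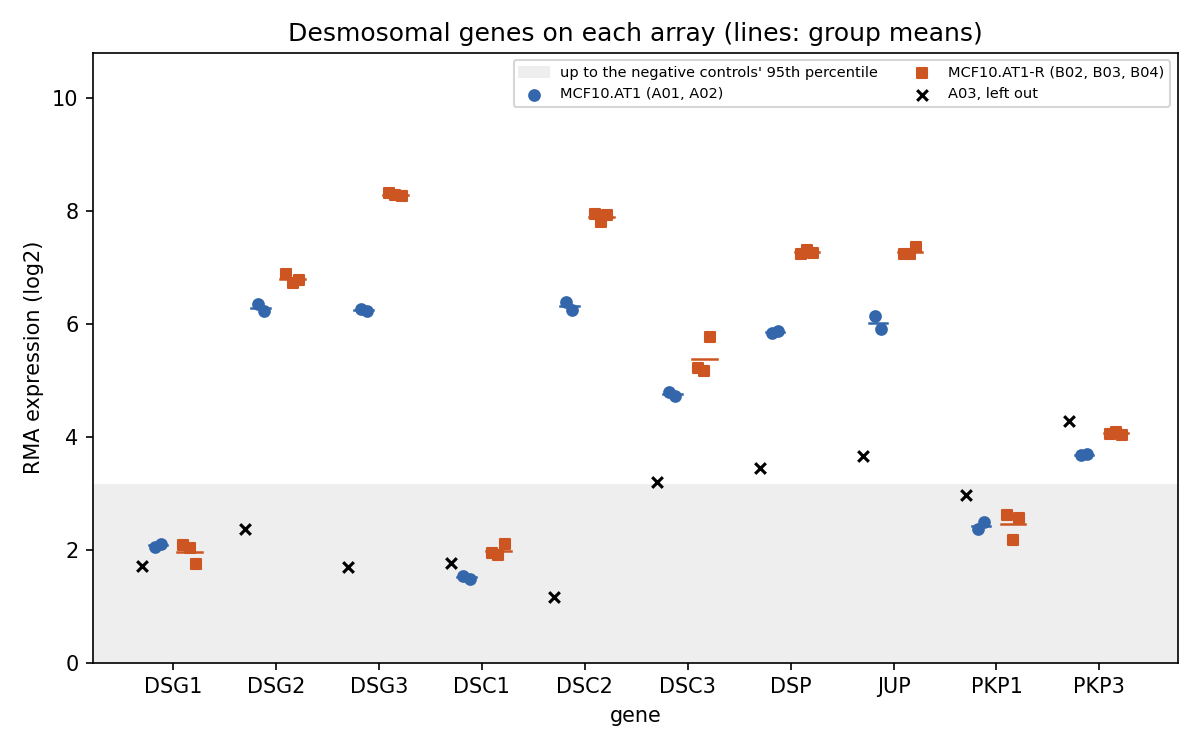
RMA log2 expression (vertical axis) of the 10 genes on each array, with blue circles for MCF10.AT1, orange squares for MCF10.AT1-R, crosses for A03 and short lines for group means; grey marks the range up to the highest 95th percentile of the negative controls on the 5 arrays. The squares of DSG3, DSC2, DSP and JUP lie more than 1 log2 unit above the circles, while DSG1, DSC1 and PKP1 stay in the grey range.

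Among the desmogleins, DSG3 had the largest change. DSG3, the basal desmoglein and the main antigen of pemphigus vulgaris, was at 6.27 and 6.23 in MCF10.AT1 and at 8.32, 8.28 and 8.27 in MCF10.AT1-R. The groups were far apart and the arrays within each were close together, with SDs of 0.033 and 0.027. DSG3 rose by a log2 change of 2.04 (SE 0.31, 95% confidence interval 1.43 to 2.65, limma adjusted p = 3.41e-08), or 4.11-fold (2.69 to 6.28). It was the 71st largest rise among the 36081 symbols tested.

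DSG2, the desmoglein that simple epithelia also carry, was at 6.35 and 6.23 in MCF10.AT1 and at 6.88, 6.73 and 6.78 in MCF10.AT1-R. Its groups did not overlap, but the change did not pass the test (log2 change 0.51, 95% confidence interval -0.10 to 1.12, adjusted p = 0.733). DSG1, the upper-layer desmoglein and target of pemphigus foliaceus antibodies, was at 2.05 and 2.10 in MCF10.AT1 and at 2.09, 2.02 and 1.75 in MCF10.AT1-R. All of these values lay in the background and the groups overlapped, so no fold is given. The log2 change of DSG3 exceeded that of DSG2 by 1.53, with an exact two-sided permutation p over the 5 arrays of 0.1. This was the smallest p that 2 arrays against 3 allow, and was also 0.1 after adjustment over 3 such pairs chosen after their values were seen.

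Among the desmocollins, DSC2 changed most. DSC2, the broadly expressed desmocollin, was at 6.39 and 6.24 in MCF10.AT1 and at 7.94, 7.81 and 7.94 in MCF10.AT1-R. All 3 MCF10.AT1-R arrays were well above both MCF10.AT1 arrays. DSC2 rose by a log2 change of 1.58 (SE 0.31, 95% confidence interval 0.97 to 2.19, adjusted p = 0.000109), or 2.99-fold (1.96 to 4.56).

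DSC3, the desmocollin of basal layers, was at 4.79 and 4.71 in MCF10.AT1 and at 5.22, 5.17 and 5.77 in MCF10.AT1-R. The groups did not overlap, and B04 was higher than the other two. Its change did not pass the test (log2 change 0.63, 95% confidence interval 0.02 to 1.25, adjusted p = 0.567), and was 0.44 without B04. DSC1, the upper-layer desmocollin, was at 1.54 and 1.48 in MCF10.AT1 and at 1.94, 1.91 and 2.10 in MCF10.AT1-R, in the background throughout. The change of DSC2 exceeded that of DSC3 by 0.94 (exact two-sided permutation p = 0.1 over 5 arrays, the smallest possible).

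The 7 desmosomal cadherin genes lie together on chromosome 18, with the desmocollins at one end and the desmogleins at the other. In the RefSeq order DSC3, DSC2, DSC1, DSG1, DSG4, DSG3 and DSG2, 4 genes were above background on all 5 arrays, with log2 changes of 0.63 for DSC3, 1.58 for DSC2, 2.04 for DSG3 and 0.51 for DSG2. The pair past the test, DSC2 and DSG3, did not lie side by side. The 3 genes between them were in the background on all 5 arrays (DSC1, DSG1) or on 4 of 5 (DSG4, the desmoglein of the hair cortex), so that whether they changed cannot be read from these arrays.

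**Figure D2:**
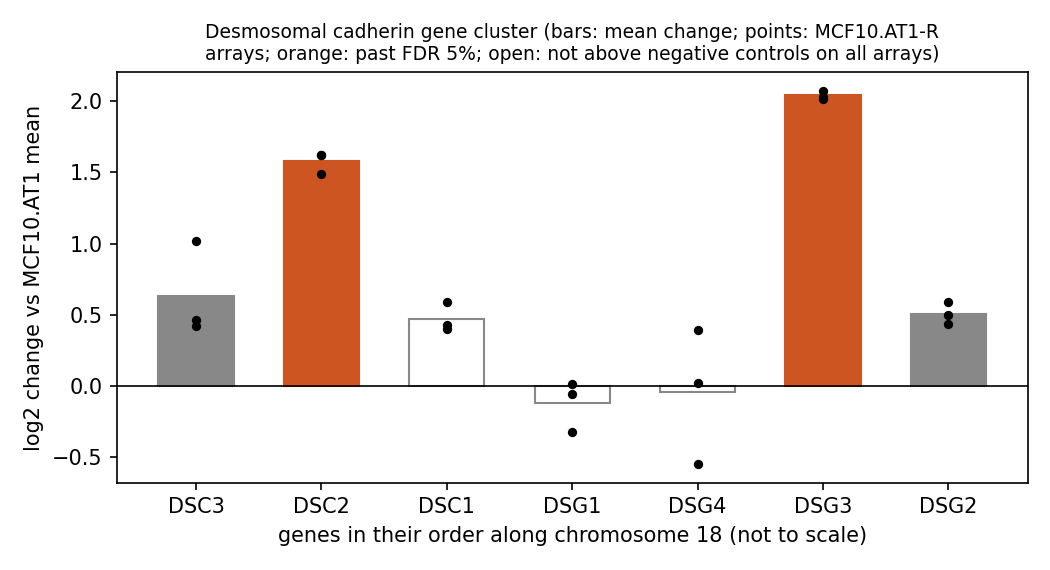
Mean log2 change from MCF10.AT1 to MCF10.AT1-R (bars, vertical axis) of the 7 desmosomal cadherin genes in their order on chromosome 18, with points for each MCF10.AT1-R array against the MCF10.AT1 mean. Orange bars passed an FDR of 5%, and open bars mark genes not above the negative controls on all 5 arrays. DSC2 at 1.58 and DSG3 at 2.04 are the bars past the test, DSC3 at 0.63 and DSG2 at 0.51 are not, and the open bars are differences within the background.

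The promoters of a gene that rose and of one that lay in the background are shown here because a script found the longest stretch shared by any pair of the 3 desmogleins in them. The sequences are the 250 bases before the RefSeq start on GRCh38.p14, for DSG3 at chr18:31447491-31447740, + strand, and for DSG1 at chr18:31317910-31318159, + strand. Capitals mark an identical run of 20 bases, starting at -78 in DSG3 and at -120 in DSG1.
DSG3: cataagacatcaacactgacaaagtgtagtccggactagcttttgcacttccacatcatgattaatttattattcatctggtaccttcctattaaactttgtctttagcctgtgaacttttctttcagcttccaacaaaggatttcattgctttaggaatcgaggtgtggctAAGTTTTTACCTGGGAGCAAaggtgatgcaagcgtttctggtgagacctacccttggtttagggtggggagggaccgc
DSG1: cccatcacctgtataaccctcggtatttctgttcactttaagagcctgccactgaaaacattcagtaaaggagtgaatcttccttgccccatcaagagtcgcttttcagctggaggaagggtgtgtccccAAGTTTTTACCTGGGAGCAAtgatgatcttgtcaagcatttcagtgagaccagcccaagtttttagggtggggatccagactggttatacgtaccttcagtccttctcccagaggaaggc
The DSG2 window shared at most 9 identical bases with that of DSG3 and 7 with that of DSG1. GC content was 42.8% in the DSG3 window, 48.0% in that of DSG1 and 75.2% in that of DSG2. The shared run is thus found in the DSG3 window, whose gene was at 6.23 to 8.32 on the 5 arrays, and in the DSG1 window, whose gene stayed in the background.

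In the plaque, DSP and JUP rose and the plakophilins did not pass the test. DSP, the linker between plaque and keratin, was at 5.84 and 5.87 in MCF10.AT1 and at 7.23, 7.32 and 7.26 in MCF10.AT1-R. The gap between the groups was 1.36, much wider than the spread within either. DSP rose by a log2 change of 1.41 (SE 0.31, 95% confidence interval 0.80 to 2.02, adjusted p = 0.00113), or 2.66-fold (1.74 to 4.07).

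JUP, an armadillo-repeat protein that is found in desmosomes and also in adherens junctions, was at 6.14 and 5.91 in MCF10.AT1 and at 7.24, 7.23 and 7.36 in MCF10.AT1-R. The groups did not overlap, and the wider spread was in MCF10.AT1. JUP rose by a log2 change of 1.25 (SE 0.31, 95% confidence interval 0.64 to 1.86, adjusted p = 0.00832), or 2.38-fold (1.56 to 3.63). CTNNB1, β-catenin, its close relative in adherens junctions, was at 7.02 and 7.36 in MCF10.AT1 and at 7.33, 7.37 and 7.41 in MCF10.AT1-R, with overlapping groups. The change of JUP exceeded that of CTNNB1 by 1.07 (exact two-sided permutation p = 0.1 over 5 arrays, the smallest possible).

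PKP3, a plakophilin that can bind most desmosomal cadherins, was at 3.67 and 3.69 in MCF10.AT1 and at 4.05, 4.09 and 4.03 in MCF10.AT1-R. Its arrays were close within each group and did not overlap between them, but the change was small and did not pass (log2 change 0.38, 95% confidence interval -0.23 to 0.99, adjusted p = 0.821). The SDs of its arrays, 0.012 and 0.031, were far below the common SD of 0.34 that limma used for every probe set passing the filter. PKP1, which is abundant in the upper layers of stratified epithelia, was at 2.37 and 2.48 in MCF10.AT1 and at 2.62, 2.18 and 2.56 in MCF10.AT1-R, in the background and with overlapping groups.

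**Figure D3:**
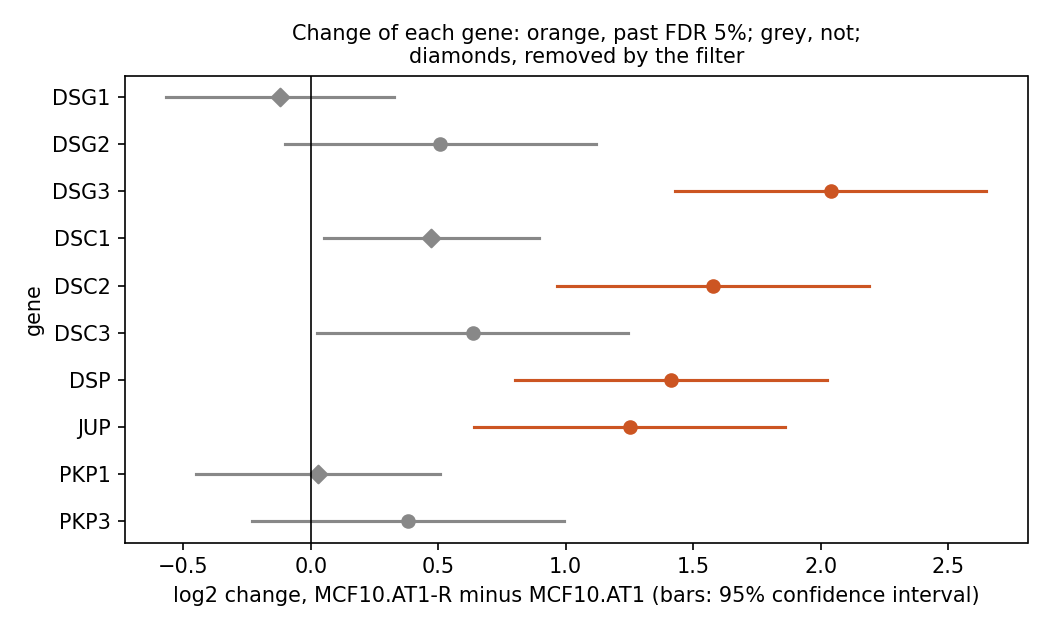
Log2 change from MCF10.AT1 to MCF10.AT1-R (horizontal axis) for each of the 10 genes with its 95% confidence interval from limma. Orange marks the 4 genes past an FDR of 5%, grey the others, and diamonds the 3 genes the filter removed. The intervals of DSG3, DSC2, DSP and JUP start at 1.43, 0.97, 0.80 and 0.64, and that of DSC3 starts just above 0.

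The call for JUP depended on the filter, and the calls for DSP and JUP on having 2 MCF10.AT1 arrays. The change of DSP was 1.40 without A01 and 1.42 without A02, beside 1.41 with both. That of JUP was 1.36 and 1.14, beside 1.25 with both. With the low-expression filter alone, which does not use the SD, 3 of the 10 genes were called higher (0.217% of all probe sets tested). The limma adjusted p was then 0.00698 for DSG3, 0.0216 for DSC2, 0.0281 for DSP and 0.0600 for JUP. With this filter and a variance that follows the expression level all 4 were called (1.13% of all). Without A01 or without A02 only DSG3 and DSC2 passed, with adjusted p-values of 0.0774 and 0.0749 for DSP and of 0.0982 and 0.340 for JUP.

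Promoter windows were given for 9 of the 10 genes, with 2 starts each for DSC2 and JUP. Starts are numbered by rising coordinate, so that for these genes, both on the - strand, the second start lies upstream of the first. In these 11 windows both strands were searched for 3 motifs. CAGGTG, an E-box that Snail and ZEB factors are known to bind, was found in 5 windows, against 17.5% of 35116 promoter windows of the same length. The grainyhead core AACNNGTT was found in 0 of the 11 windows (3% of all windows), and the AP-1 site TGANTCA also in 0 (6.57% of all). The windows of the genes that rose and hold the E-box are shown, with CAGGTG or its reverse complement in capitals: DSC2 at its second start (chr18:31102422-31102671, - strand), DSP (chr6:7541421-7541670, + strand) and JUP at its first start (chr17:41785977-41786226, - strand), all on GRCh38.p14.
DSC2: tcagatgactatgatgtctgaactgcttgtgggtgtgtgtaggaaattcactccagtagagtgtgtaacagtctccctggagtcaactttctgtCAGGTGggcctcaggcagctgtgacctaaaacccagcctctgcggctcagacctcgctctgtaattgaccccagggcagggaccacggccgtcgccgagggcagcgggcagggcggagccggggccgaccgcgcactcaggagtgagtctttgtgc
DSP: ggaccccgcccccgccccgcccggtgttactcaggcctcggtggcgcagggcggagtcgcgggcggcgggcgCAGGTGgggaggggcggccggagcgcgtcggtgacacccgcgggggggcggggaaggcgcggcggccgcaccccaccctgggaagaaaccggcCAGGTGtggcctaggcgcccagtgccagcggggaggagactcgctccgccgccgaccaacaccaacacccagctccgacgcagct
JUP: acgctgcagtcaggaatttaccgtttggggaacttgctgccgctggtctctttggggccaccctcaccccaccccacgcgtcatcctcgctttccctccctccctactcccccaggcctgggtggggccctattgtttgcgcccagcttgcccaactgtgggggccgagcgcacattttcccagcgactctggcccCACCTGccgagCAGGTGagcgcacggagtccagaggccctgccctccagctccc
DSP holds the motif at -178 and -85, JUP at -54 and -43 on opposite strands, and DSC2 at -156. DSG3, with the largest change, has none in its window, while DSG1, in the background, and DSG2, not past the test, each have at least 1. A match describes these letters only, and binding was not measured.

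Of 8 other genes of desmosomes, 1 rose, none fell, 6 did not pass and 1 was removed by the filter, with a median log2 change of 0.51. For this list and those below, the share called higher over all probe sets tested was 0.758%. The gene that rose was CDSN, corneodesmosin, a glycoprotein of the desmosomes of cornifying layers, from 4.53 and 4.67 to 5.67, 5.42 and 6.10 (log2 change 1.14, 95% confidence interval 0.53 to 1.75, adjusted p = 0.0269). PERP, a membrane protein of desmosomes and a target of p63, was at 8.65 and 8.73 in MCF10.AT1 and at 9.76, 9.78 and 9.72 in MCF10.AT1-R, and narrowly missed the threshold (log2 change 1.06, adjusted p = 0.0525). PKP2, the plakophilin of simple epithelia and heart, was at 8.19 and 7.98 against 8.69, 8.64 and 8.73 (log2 change 0.60, adjusted p = 0.618). Both had arrays that did not overlap between the lines. CDSN did not pass without A01, A02, B02 or B04 (adjusted p = 0.414, 0.25, 0.0566 and 0.22), nor with the low-expression filter alone (0.199), and the number past the threshold in this list was 0 to 4 over the alternatives.

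In adherens junctions, the other cadherin-based junction of epithelia, 1 of 12 genes rose and none fell, with a median of 0.42. That gene was CDH1, E-cadherin, from 6.97 and 6.79 in MCF10.AT1 to 8.25, 8.18 and 8.10 in MCF10.AT1-R (log2 change 1.30, 95% confidence interval 0.69 to 1.91, adjusted p = 0.00481). CDH1 did not pass without A01 (adjusted p = 0.0834), without A02 (0.248), with no filter (0.0616) or with values raised to the background level (0.0633). CDH3, P-cadherin, a cadherin of basal and myoepithelial cells, was at 8.13 and 8.25 against 9.19, 9.12 and 9.02, with a log2 change of 0.93 that did not pass (adjusted p = 0.148).

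Of the 12 keratins, the filaments that desmosomes anchor, 9 rose and none fell, with a median log2 change of 1.56, and in all 12 the groups did not overlap. Over all probe sets tested, 0.758% were called higher, and 12.9% had every MCF10.AT1-R array above both MCF10.AT1 arrays. KRT17, a keratin of basal and wounded epithelium, went from 6.55 and 6.56 to 10.61, 10.56 and 10.73, a log2 change of 4.08 (95% confidence interval 3.47 to 4.69, adjusted p = 3.62e-35). KRT19, which is common in simple epithelia, changed by 2.91, KRT14, the basal keratin, by 2.37, and KRT6B, a keratin of activated epithelium, by 1.85. The remaining 5 keratins past the test changed by 1.10 to 1.73, and of these KRT1 and KRT8 did not pass when any 1 array was left out. Without B02, B03 or B04 their adjusted p was 0.0502 to 0.105 and 0.0535 to 0.119. The call for KRT16 needed both MCF10.AT1 arrays, and its log2 change was 1.46 without A01 and 1.35 without A02. With values raised to the background level 5 of the 12 keratins passed, and KRT14 (adjusted p = 0.0684) and KRT6B (0.0619) were among those that did not. The values of KRT14 and KRT6B themselves lay above that level and were unchanged. Cross-hybridisation between keratin probes of similar sequence was not tested.

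Of 14 transcription factors linked to desmosomal or epithelial genes, 2 rose and 1 fell, with a median of 0.42. TP63, the master regulator of stratified epithelium, was at 4.55 and 4.08 in MCF10.AT1 and at 5.97, 6.20 and 6.03 in MCF10.AT1-R (log2 change 1.74, adjusted p = 8.14e-06). OVOL2, a repressor that favours the epithelial state, was at 3.98 and 3.64 against 4.71, 4.91 and 5.29 (log2 change 1.16, adjusted p = 0.0212). ZEB1, a repressor of epithelial genes including CDH1, was at 4.37 and 4.86 against 2.92, 2.66 and 3.20 (log2 change -1.69, adjusted p = 1.9e-05), with B03 in the background. With values raised to the background level the change of ZEB1 was -1.56 and none of the 14 passed (adjusted p = 0.131 for TP63, 0.352 for OVOL2 and 0.167 for ZEB1). TP63 and OVOL2 lay above that level on all 5 arrays, so their changes stayed at 1.74 and 1.16. For them only the variance and adjustment taken over all probe sets differed. With the low-expression filter alone, or with no filter, OVOL2 (adjusted p = 0.176 and 0.236) and ZEB1 (0.0612 and 0.0606) also did not pass. OVOL2 did not pass without A01, A02 or B04 (adjusted p = 0.170 without B04), and ZEB1 did not pass without A02. Whether these levels bear on the motif matches above was not tested.

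Of 10 proteases and inhibitors that act on desmosomes or their turnover, 5 rose and none fell, with a median of 1.06. KLK7 and KLK5, kallikrein proteases that cut corneodesmosomal proteins in the skin, rose by 4.64 and 4.11 on the log2 scale. KLK7 was at 4.45 and 4.60 in MCF10.AT1 and at 9.15, 9.11 and 9.23 in MCF10.AT1-R, and KLK5 was at 6.03 and 5.34 against 9.76, 9.86 and 9.75. CTSV, a cathepsin, rose by 2.83, CST6, cystatin E/M, an inhibitor of cathepsins, by 2.14, and SPINT1, an inhibitor of the protease matriptase, by 1.21. SPINT1 did not pass without A01, A02 or B04 (adjusted p = 0.0802 without B04), nor with the low-expression filter alone (0.0731). With values raised to the background level, KLK7 and CTSV passed. KLK5 (adjusted p = 0.0570), CST6 (0.0692) and SPINT1 (0.108) then did not, although their own values were above that level and unchanged. Both proteases and inhibitors were thus among the genes that rose.

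**Figure D4:**
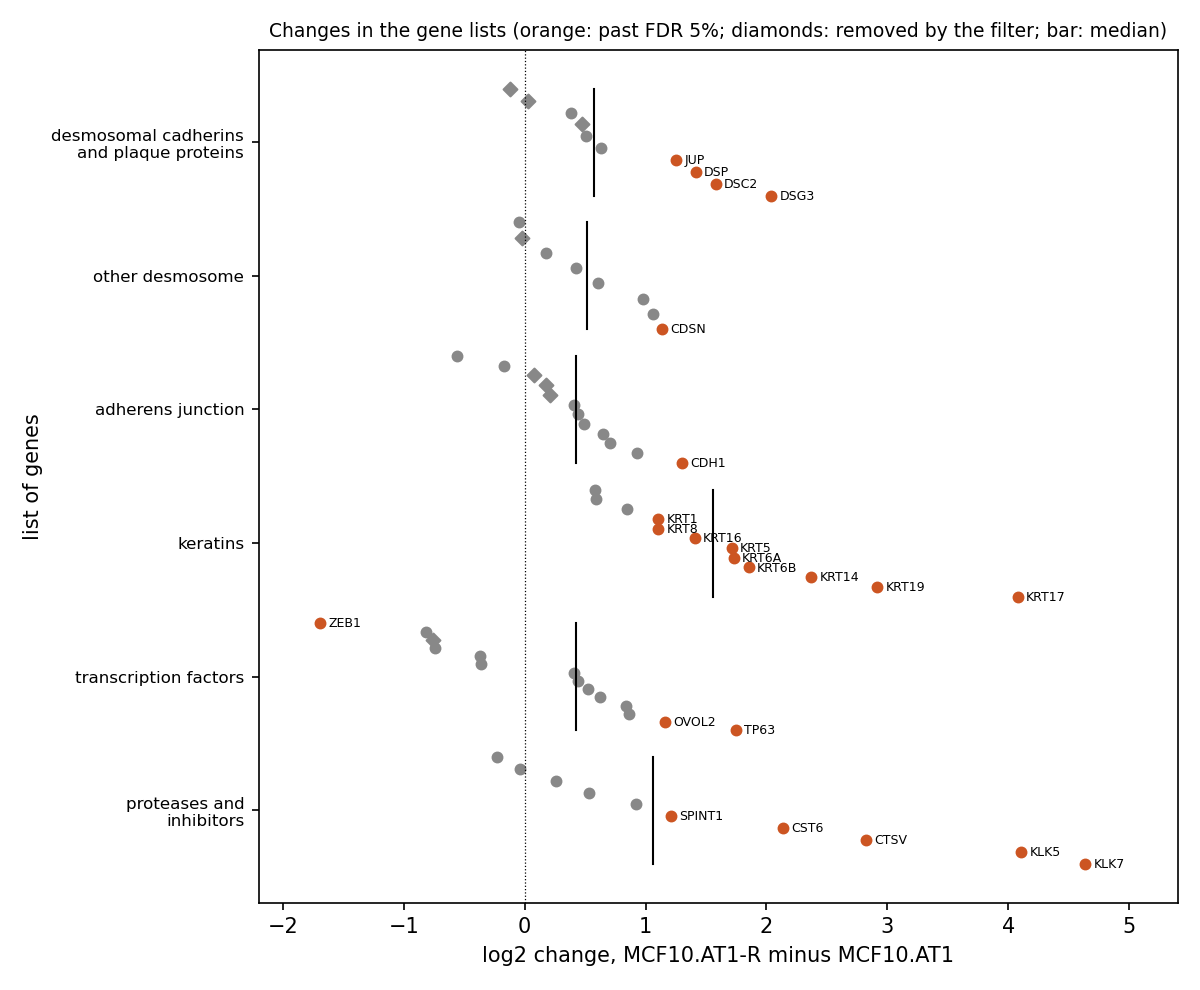
Log2 change from MCF10.AT1 to MCF10.AT1-R (horizontal axis) of every gene in the desmosomal group and in 5 related lists, with orange for genes past an FDR of 5%, diamonds for genes the filter removed and a vertical bar for each list's median. The medians are 0.57, 0.51, 0.42, 1.56, 0.42 and 1.06 from top to bottom, and ZEB1 is the one gene past the threshold with a negative change.

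At an FDR of 5%, 5 of 9 basal, 3 of 8 cornifying and 1 of 7 luminal markers rose. The filter had kept 8, 5 and 4 of these markers, and 0.758% of all probe sets tested were called higher. No fibroblast or blood marker rose. Of the 9 basal markers 5 rose, and their summed log2 level was 63.6 to 64.0 in MCF10.AT1 and 77.6 to 78.1 in MCF10.AT1-R. Among them were KRT17 (4.08), KRT14 (2.37) and TP63 (1.74), values that are log2 changes. Of the 8 markers of cornifying keratinocytes, 3 rose, namely IVL, involucrin (log2 change 3.23), CDSN (1.14) and KRT1 (1.10), and the summed level was 23.9 to 24.1 against 29.2 to 31.1. These 3 were above background on all 5 arrays, KRT10 and KRT2 on 4, LORICRIN on 1, and FLG and CASP14 on none.

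Of the 7 luminal markers 1 rose (KRT8, log2 change 1.11), with sums of 33.1 to 33.5 against 34.0 to 35.3. Also above background on all 5 arrays were KRT18 (log2 change 0.85), FOXA1 (-0.18) and GATA3 (0.18). KRT18 and FOXA1 did not pass (adjusted p = 0.243 and 0.888), and the filter removed GATA3. KRT19, given with the keratins, is not in this list. Of the 8 fibroblast markers 1 fell (DCN, decorin, log2 change -2.15), with sums of 31.6 to 32.1 against 28.9 to 30.1. Of the 3 blood cell markers 1 fell (CD14, log2 change -1.12), and PTPRC was in the background on all 5 arrays. These marker lists share KRT5, KRT14, KRT17, KRT1, KRT10, KRT8, KRT18, CDSN, TP63, CDH3 and TWIST1 with the lists above, and their part in the changes of the desmosomal genes was not tested.

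On A03 the genes that differed between the lines were near or below background. This was not particular to them, as CTNNB1 at 2.705 and PKP2 at 2.47, neither of them called, were also low there. DSG3 was at 1.69, DSC2 at 1.16 and DSG2 at 2.36 there, against at least 6.23 on A01 and A02, and DSP and JUP were at 3.45 and 3.66. Of the 10 genes 4 were above the background of A03, namely DSC3, DSP, JUP and PKP3, against 7 on every other array. PKP3 was at 4.27 on A03, above its 5 values elsewhere. When A03 was added to the MCF10.AT1 group, the changes of DSG3, DSC2, DSP and JUP were 3.56, 3.30, 2.21 and 2.04, and none passed the test (adjusted p = 0.771 for each).

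**Figure D5:**
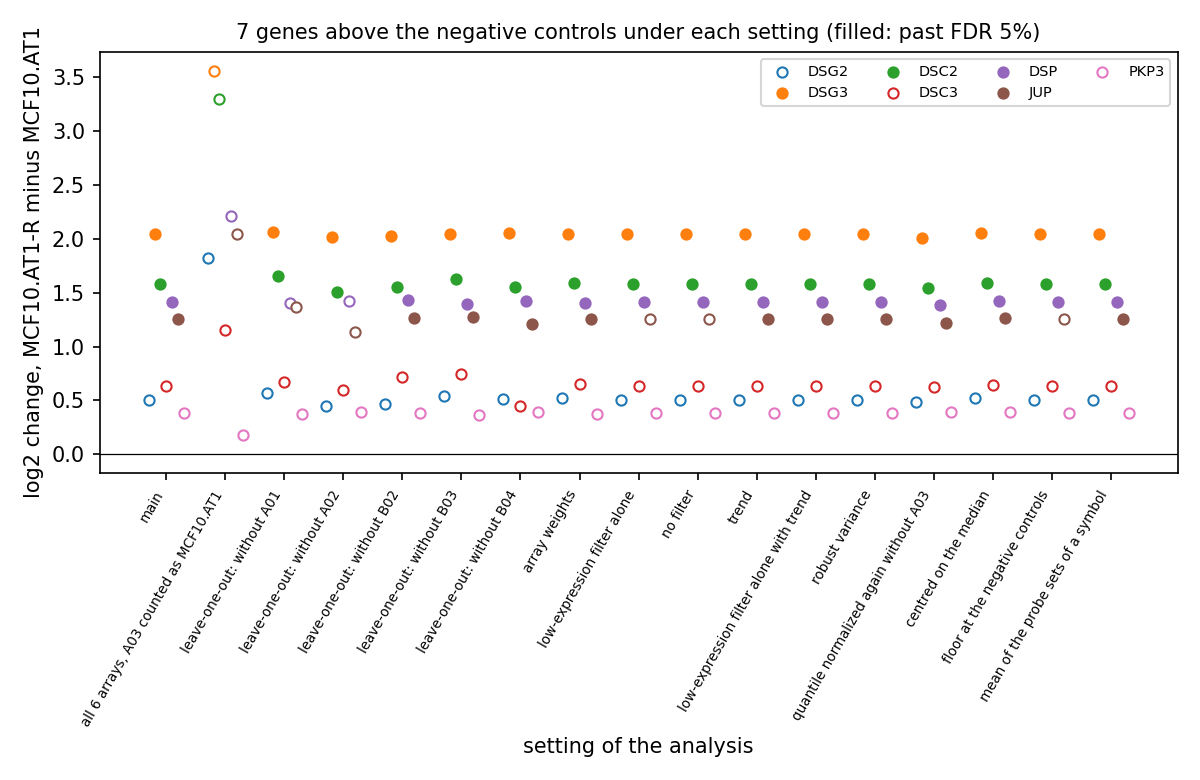
Log2 change from MCF10.AT1 to MCF10.AT1-R (vertical axis) of the 7 genes above background on all 5 arrays, under each setting of the analysis (horizontal axis); filled points passed an FDR of 5%. DSG3 stays between 2.01 and 2.06 and DSC2 reaches at most 1.66 in every setting without A03, and in the setting with A03 no point is filled.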

How the data were processed

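Total RNA of both lines was hybridised to 6 Clariom D arrays. The authors processed the scans by RMA (background correction, quantile normalisation, probe summarisation) with the packages affy and oligo and deposited log2 values for 135750 transcript and 2995 control probe sets, unfiltered and with A03 included in the normalisation. The build behind the symbols is not given in the sources used here. The line of each array was taken from its letter, as the study's supplementary principal component plot names A arrays as sensitive and B arrays as resistant.

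The 5 arrays kept were compared with limma 3.58.1 (lmFit, eBayes; R 4.3.3) and Benjamini-Hochberg adjustment over 51457 probe sets whose mean exceeded the median of transcript probe sets (1.88) and whose SD exceeded the lowest 25% (0.18), limits set here. This SD was taken over all 5 arrays and so included the difference between the lines. Other probe sets were looked up in an unfiltered fit. After the filter limma used a common SD, so closely repeated arrays gained a gene nothing. The p-values of the main fit set each change against this common SD between arrays, not against the spread of the gene's own arrays. With 1 resistant line, no p-value here measures the spread between resistant lines.

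The genes and lists were chosen with earlier results of these data known, and no set was tested. Named are the 10 genes, DSG4, PKP2, PERP, CDH1, CDH3, CTNNB1, TP63 and, of each other list, at most the 4 largest changes past the threshold, except 1 basal marker that is not reported here. SPINT1, KRT16, KRT18, GATA3, FOXA1, KRT10, KRT2, LORICRIN, FLG, CASP14 and PTPRC were named after their values were seen. The differences between pairs of changes were added then. AFDN, the nectins and LORICRIN were matched under older symbols. Promoters came from a RefSeq table (GRCh38.p14). Alternatives changed the arrays, weights, filters, variance model, normalisation, floor, probe sets and threshold.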

Additional observations from a re-analysis of the deposited data

How the results depend on the processing

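No paired analysis was possible because the columns of the deposited table carry no replicate number of the labels. The directions of the 7 genes above background were kept under all 16 alternatives, and DSG3 and DSC2 passed under every one of them except with A03 counted as MCF10.AT1. In that setting 0 of the 10 genes passed, the median change of the 10 was 1.49, and DSG1 and PKP1, both in the background, turned to 0.0021 and -0.15. With 1 array left out, 2 to 4 of the 10 genes passed, 2 without A01 and 2 without A02 (the lone MCF10.AT1 array was then taken to have the spread of the other line), and the change of PKP1 ranged from -0.054 to 0.17. JUP did not pass with the low-expression filter alone (adjusted p = 0.0600), with no filter (0.0777) or with values raised to the background level (0.0781). The size of the adjusted p-values from limma also depended on the filter. With the low-expression filter alone they were 0.00698 for DSG3 and 0.000885 for KRT17, against 3.41e-08 and 3.62e-35 with the main filter. The causes were not tested. Calls over all probe sets numbered 620, against 44 with A03, 315 without A01, 280 without A02, 182 with the low-expression filter alone, 177 with no filter, 177 with the floor, 1377 with a variance trend and 1086 with that trend and the low-expression filter alone. Counts past the threshold ranged from 0 to 3 for adherens junctions, 2 to 11 for keratins, 0 to 4 for transcription factors and 2 to 6 for proteases and inhibitors. Signal over background limits DSG1, DSC1 and PKP1, whose differences lie within the background and are no measure of change.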
